A study of Mus musculus with 6 samples.

Results

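The genes described here encode DNA glycosylases of base excision repair and the endonuclease that acts after them. They are the 10 genes *Neil1*, *Neil2*, *Neil3*, *Nthl1*, *Ogg1*, *Mutyh*, *Ung*, *Tdg*, *Mpg* and *Apex1*, found by name among the 41457 genes of each table. *Neil3* was put first because its reads were already known to be higher in one group of these same libraries, so it was chosen by its CPM in the Nc1Bio and BirA libraries, and that difference is described without a test. The other 9 were listed for their function.

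The study asked how the transcription factor NFATc1 acts in early thymocytes. Messenger RNA was sequenced from CD4-CD8- double-negative (DN) cells of the thymus, early T cell precursors without either co-receptor, with 3 libraries in each of 2 groups. The BirA group, given the genotype WT, came from mice that express the biotin ligase BirA from the Rosa26 locus. The Nc1Bio group, given the genotype NFATc1 overexpression, came from mice that express BirA too and carry a bacterial artificial chromosome with an extra copy of *Nfatc1*, whose product bears a C-terminal biotin tag. BirA is therefore common to both groups, and the controls are not unmodified mice. All mice were 4 to 6 weeks old, on a C57/B6 background and matched for sex and age, per the study's methods, and no treatment of the DN cells is given. The cells were enriched by magnetic removal of CD4+ and CD8+ cells and not sorted further, so other cells without these co-receptors could remain. No label ties a library to its own animal, so p-values measure the spread between libraries, which may be technical.

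Base excision repair removes single damaged or misplaced bases from DNA. A glycosylase recognises the base and cuts it from the sugar, an apurinic/apyrimidinic (AP) endonuclease opens the strand at the empty site, and a polymerase and a ligase fill and close the gap by a short or a long patch. The glycosylases divide the work by the base they recognise. *Neil1*, *Neil2*, *Neil3* and *Nthl1* act mainly on oxidised pyrimidines and ring-opened purines, *Ogg1* on 8-oxoguanine and *Mutyh* on adenine paired with it, *Ung* on uracil, *Tdg* on thymine or uracil paired with guanine and on oxidised forms of 5-methylcytosine, and *Mpg* on alkylated bases. *Neil3* is known for its expression in proliferating cells, the thymus among them, and for acting on single-stranded DNA and on crosslinks between the strands at replication forks.

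The libraries held 11845952 to 15393763 unique gene reads, the reads assigned to a single gene, and 12224 genes had enough of them to be tested. *Nfatc1*, the gene the transgene carries, was at 551 to 597 CPM, the unique reads of a gene per 1000000 reads of the scaled library, in Nc1Bio and 96.8 to 152 CPM in BirA, with an adjusted p of 0.0141 in edgeR's quasi-likelihood test. Its call was lost without BirA replicate 2 or without any 1 of the 3 Nc1Bio libraries. Markers of DN thymocytes were present in every library, among them *Thy1* at 1608 to 2054 CPM and *Il2ra* at 330 to 772 CPM, while *Cd4* was at 0.834 to 6.85 CPM and *Cd8a* at 4.25 to 14.0 CPM. Haemoglobin genes took 1.79% to 8.90% of the unique reads, most in Nc1Bio replicate 3 and BirA replicate 1. BirA replicate 1 also held the lowest level of 8 of the 9 members with enough reads, so values without it are given below.

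The promoters of *Neil3* and *Neil1* are shown because these 2 genes hold nearly all of the Neil family reads compared below and because NFAT and cell cycle factors have short known motifs. Each is the 250 bases before the annotated start in RefSeq (GRCm38.p6), read 5′ to 3′ on the strand of the gene, the minus strand for both. Capitals mark matches, on either strand, to the NFAT core, GGAAA, whose complement reads as TTTCC. They also mark matches to the cell cycle homology region, which was searched as TTTGAA and as TTCGAA.

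Neil3 chr8:53639066-53639315: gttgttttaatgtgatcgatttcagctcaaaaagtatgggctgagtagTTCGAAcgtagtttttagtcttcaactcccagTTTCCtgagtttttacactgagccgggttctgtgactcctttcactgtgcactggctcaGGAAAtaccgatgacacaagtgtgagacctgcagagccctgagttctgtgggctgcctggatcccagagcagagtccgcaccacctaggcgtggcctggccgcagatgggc

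Neil1 chr9:57148306-57148555: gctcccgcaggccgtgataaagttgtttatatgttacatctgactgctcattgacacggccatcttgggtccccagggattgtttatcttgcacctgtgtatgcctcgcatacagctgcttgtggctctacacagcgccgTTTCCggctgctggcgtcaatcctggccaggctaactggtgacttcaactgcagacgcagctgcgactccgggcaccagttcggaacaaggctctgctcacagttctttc

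*Neil3* held 1 cell cycle homology match, 202 bases before its start, and 2 NFAT core matches, at 170 and 111 bases before it. *Neil1* held 1 NFAT core match, 110 bases before its start, and no cell cycle homology match. RefSeq promoters were matched for 9 of the 10 members, with 2 for *Mutyh*. Of these 10 promoters, 5 held the NFAT core, which is in 55.6% of all 32851 promoters, and 2, those of *Neil3* and *Apex1*, held the cell cycle homology region, which is in 17.1%. An E2F motif (TTTGGCGC, TTTCCCGC, TTTCGCGC or TTTGCCGC, on either strand) was found for *Nthl1* alone and is in 1.86% of all promoters. A CCAAT box (CCAAT, either strand, in 33.8% of all promoters) was found in 7 of the 10 and a GC box (GGGCGG, either strand, in 32.7%) in 6, neither of them in *Neil3* or *Neil1*. The GC content was 51.6% for *Neil3* and 54.8% for *Neil1*, against a median of 52.4% over all promoters. One of the E2F forms, TTTCCCGC, begins with the complement of the NFAT core, so each match to it is an NFAT core match too. A match is a run of letters, not a site shown to be bound.

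The first question was how *Neil3* differed between Nc1Bio and BirA. *Neil3* (ENSMUSG00000039396, chromosome 8, 53586867 to 53639065, minus strand, GRCm38) overlaps no other annotated gene, and at least 99.7% of its reads in each library were unique. It had 193, 303 and 246 unique reads in BirA replicates 1 to 3 and 393, 401 and 427 in Nc1Bio replicates 1 to 3. On the scale of the library sizes these were 13.9, 19.4 and 17.1 CPM in BirA, and 32.7, 30.4 and 32.9 CPM in Nc1Bio. The 3 Nc1Bio libraries lay close together and all above the highest BirA library. The mean was 32.0 ± 1.39 CPM in Nc1Bio (SD, n = 3) and 16.8 ± 2.75 CPM in BirA (SD, n = 3), a ratio of 1.91, and the fitted log2 fold change was 0.93 (SE 0.16).

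**Figure D1:**
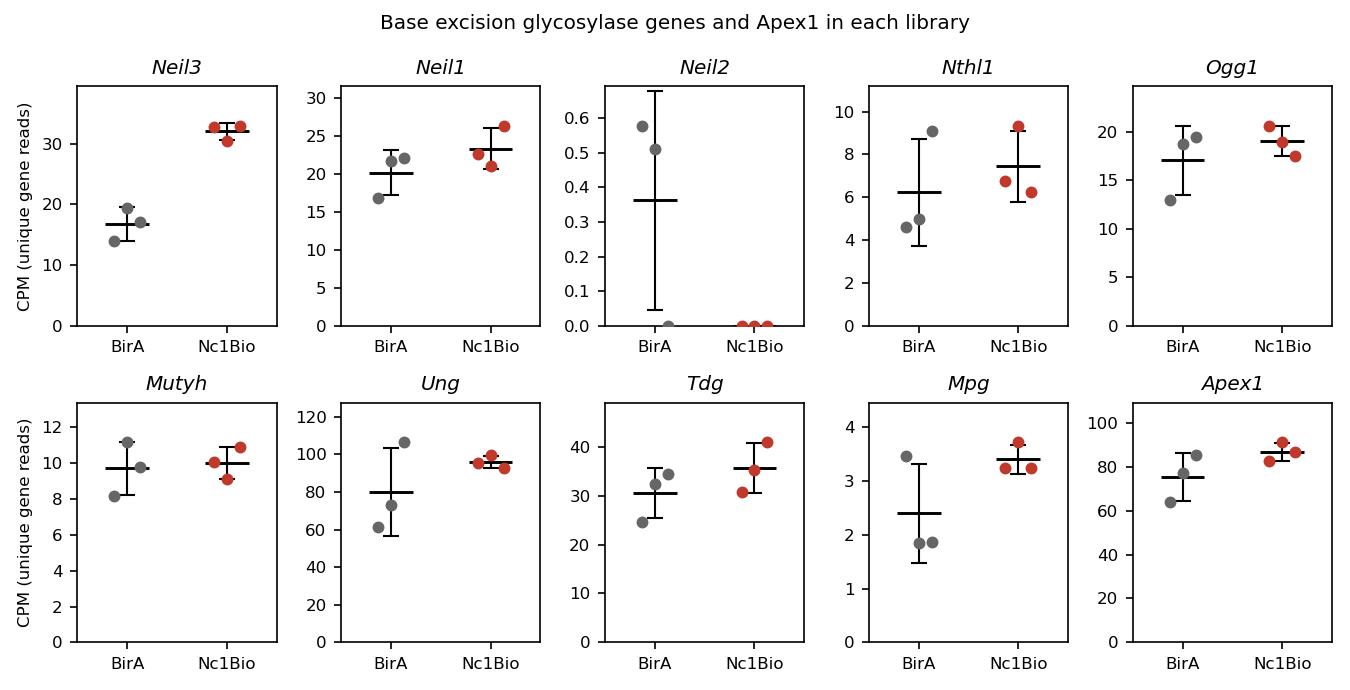
CPM of unique gene reads for the 10 members, 1 panel per gene, with 1 point per library, ordered by replicate, and the mean ± SD of the 3 libraries of each group. Neil3 is at 13.9 to 19.4 CPM in BirA and 30.4 to 32.9 CPM in Nc1Bio, while the groups overlap for every other member with reads in both groups.

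That value chose the gene, so its rank is a description too: 162 of the genes tested, 1.33%, had a larger log2 fold change. Without any 1 library the log2 fold change of *Neil3* lay between 0.81 and 1.05, the lowest without BirA replicate 1. Reads across splice junctions made up 21.2% to 30.4% of its unique reads and intron reads 2.04% to 10.4%, with 20, 12 and 14 intron reads in BirA and 8, 21 and 9 in Nc1Bio. The intron reads of the 2 groups overlapped, and exon reads alone gave a log2 fold change of 0.98.

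Within its family, *Neil3* took a larger share of the reads in Nc1Bio. The reads that chose the gene enter these shares, so they describe the same difference again and have no test. Of all *Neil1*, *Neil2* and *Neil3* reads, *Neil3* held 44.5%, 46.6% and 43.6% in BirA, and 59.1%, 59.1% and 55.5% in Nc1Bio. It was therefore behind *Neil1* in read number in all BirA libraries and ahead of it in all Nc1Bio libraries. *Neil3* has 5555 annotated exon bases and *Neil1* 1871, so read number does not rank their transcripts. Per exon length, as given below, *Neil3* stayed below *Neil1* in both groups. Of the reads of all 10 members, it held 5.59% to 7.44% in BirA and 9.56% to 10.7% in Nc1Bio. The summed level of the other 9 overlapped between the groups, at 196 to 288 CPM in BirA and 272 to 288 CPM in Nc1Bio.

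The remaining glycosylases for oxidised bases were the closest to *Neil3* in function, and none passed the test. *Neil1* (chromosome 9, 57142800 to 57148305) was at 16.8, 21.7 and 22.1 CPM in BirA and 22.7, 21.1 and 26.4 CPM in Nc1Bio. The groups overlapped, and its log2 fold change was 0.21 (SE 0.17, edgeR adjusted p = 0.662), with a 95% interval of -0.19 to 0.61. *Neil2* (chromosome 14, 63182443 to 63193856), which prefers lesions in bubbles and single strands, had 8, 8 and 0 unique reads in BirA and 0 in each Nc1Bio library, and had too few reads to be tested. Its 16 reads in BirA were 0.368 CPM over the 3 libraries, and a count of 0 in Nc1Bio allows up to 3 reads, or 0.0776 CPM, over those 3, both on unscaled totals. BirA replicate 3 was at 0 as well, so the libraries of the groups overlapped, and no junction read was among the 16. These limits cover counting error only.

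*Nthl1* (chromosome 17, 24632680 to 24638837), the other enzyme for oxidised pyrimidines, had 64, 78 and 131 unique reads in BirA and 81, 123 and 81 in Nc1Bio. This was 4.62, 4.99 and 9.10 CPM against 6.75, 9.33 and 6.25 CPM, and BirA replicate 3 was nearly as high as the highest Nc1Bio library. Its log2 fold change was 0.25 (SE 0.35, edgeR adjusted p = 0.806), and it ranged from 0.059 without Nc1Bio replicate 2 to 0.63 without BirA replicate 3. *Ogg1* (chromosome 6, 113326972 to 113335068) was at 13.0, 18.7 and 19.5 CPM in BirA and 20.6, 19.0 and 17.5 CPM in Nc1Bio. The 3 Nc1Bio values lay around those of BirA replicates 2 and 3, and the fitted log2 difference of *Ogg1* was 0.16 (SE 0.20, edgeR adjusted p = 0.786). Its last 945 bases overlap *Camk1*. *Mutyh* (chromosome 4, 116807723 to 116819440), which acts in the same 8-oxoguanine pathway, was at 8.16, 11.1 and 9.80 CPM in BirA and 10.1, 9.10 and 10.9 CPM in Nc1Bio. Its log2 fold change, 0.046 (SE 0.22, edgeR adjusted p = 0.949), was the smallest among the members tested.

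The 2 glycosylases for uracil and for mismatched thymine likewise did not pass. *Ung* (chromosome 5, 114130386 to 114139323), which also processes the uracil that cytidine deaminases leave in lymphocyte DNA, was at 61.4, 73.0 and 106 CPM in BirA and 95.7, 99.4 and 93.0 CPM in Nc1Bio. BirA replicate 3 was above all Nc1Bio libraries, and the spread within BirA (SD 23.4 CPM) was larger than the difference of the means, 80.2 and 96.0 CPM. Its log2 fold change was 0.26 (SE 0.19, edgeR adjusted p = 0.613), and it ranged from 0.099 without BirA replicate 1 to 0.52 without BirA replicate 3. *Tdg* (chromosome 10, 82629828 to 82650799) was at 24.7, 32.4 and 34.5 CPM in BirA and 30.8, 35.2 and 40.9 CPM in Nc1Bio, and the log2 fold change was 0.22 (SE 0.17, edgeR adjusted p = 0.638). Only 17.1% to 20.2% of the *Tdg* reads were unique, and total gene reads gave 0.19. The last 367 bases of *Tdg* overlap *Glt8d2*.

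*Mpg* (chromosome 11, 32226505 to 32232700), the glycosylase for alkylated bases, lies wholly within *Nprl3*. Its unique reads, 48, 29 and 27 in BirA and 39, 49 and 42 in Nc1Bio, were all junction reads and 7.28% to 15.2% of its total. It was at 3.47, 1.86 and 1.88 CPM in BirA and 3.25, 3.72 and 3.24 CPM in Nc1Bio, and BirA replicate 1 stood with the Nc1Bio libraries. The fitted difference of *Mpg* was 0.50 on the log2 scale (SE 0.41, edgeR adjusted p = 0.660) on unique reads and 0.31 on total gene reads, which *Nprl3* may share. *Apex1* (chromosome 14, 50924968 to 50927139), the main AP endonuclease, was at 63.7, 77.0 and 85.3 CPM in BirA and 82.5, 91.0 and 86.6 CPM in Nc1Bio. BirA replicate 3 lay within the Nc1Bio range, and *Apex1* had the lowest edgeR adjusted p of the 8, 0.544, at 0.20 (SE 0.12) on the log2 scale. Of its reads 42.1% to 44.5% were unique, and 1072 bases overlap *Pip4p1*. The use of strand in the counting is not stated, so reads of the 4 members that overlap another gene are uncertain.

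Across the 8 tested members other than *Neil3*, none was called by edgeR or by DESeq2, and none had an unadjusted p under 0.05 in either. Over all genes edgeR called 0.00818% higher and 0.0% lower, DESeq2 called 0.468% higher and 2.32% lower, and 4.31% were higher and 7.66% lower at an unadjusted edgeR p under 0.05. No other member had groups that did not overlap, against 8.45% of all genes higher and 9.98% lower. All 8 log2 fold changes were above 0, as were 49.6% of those of all genes, the other 50.4% lying below, with a median of 0.22 against -0.0026 for all genes tested. Without BirA replicate 1 that median was 0.092 and 6 of the 8 were above 0. The 95% intervals of all 8 included 0. Those of *Mpg* and *Nthl1*, the members of fewest reads, reached log2 fold changes of 1.45 and 1.06, and those of the other 6 ended between 0.48 and 0.69. The value of *Neil3* chose that gene, so these intervals cannot show whether the other members differed from it.

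**Figure D2:**
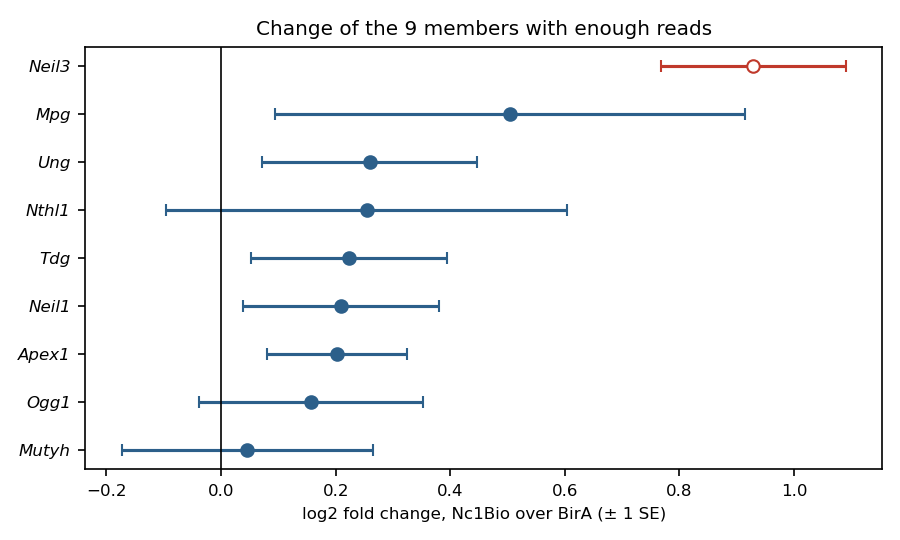
Log2 fold change of Nc1Bio over BirA with 1 SE for the 9 members with enough reads, from edgeR on unique gene reads. Neil3, drawn open because its value chose it, is at 0.93, and the other 8 lie between 0.046 and 0.50.

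Levels were compared between members per exon length, as unique exon reads scaled to exon length and to the library's sum of such reads (RPKM). In BirA, *Apex1* stood first at 54.7 ± 9.97 RPKM (SD, n = 3), followed by *Ung* at 15.2 ± 5.01, *Neil1* at 10.9 ± 2.06, *Ogg1* at 8.04 ± 1.91, *Tdg* at 5.78 ± 1.18, *Mutyh* at 3.83 ± 0.677, *Neil3* at 2.93 ± 0.641, *Nthl1* at 2.36 ± 1.06 and *Mpg* at 0.653 ± 0.226 RPKM. The AP endonuclease transcript was thus several times more abundant than any glycosylase transcript, and its range overlapped with none of them. The ranges over libraries overlapped between *Ung* and *Neil1*, *Neil1* and *Ogg1*, *Ogg1* and *Tdg*, *Mutyh* and *Neil3*, and *Neil3* and *Nthl1*, so these neighbours were not set apart by their spread between libraries. Within each BirA library the order of neighbours was the same, except that *Neil3* was above *Nthl1* in 2 of 3. In Nc1Bio, *Neil3* was at 5.62 ± 0.305 RPKM (SD, n = 3), above *Mutyh* at 3.80 ± 0.209 in all 3 libraries and below the mean of *Tdg* at 6.50 ± 0.536, with 1 of its 3 libraries inside the range of *Tdg*. *Neil1* was at 12.4 ± 0.854 RPKM in Nc1Bio (SD, n = 3), above *Neil3* there as in BirA. The order depended on the count column: with total exon reads *Tdg* was at 23.4 RPKM in BirA, second after *Apex1*, and *Mpg* at 4.72 RPKM was above *Neil3* at 2.14 RPKM.

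**Figure D3:**
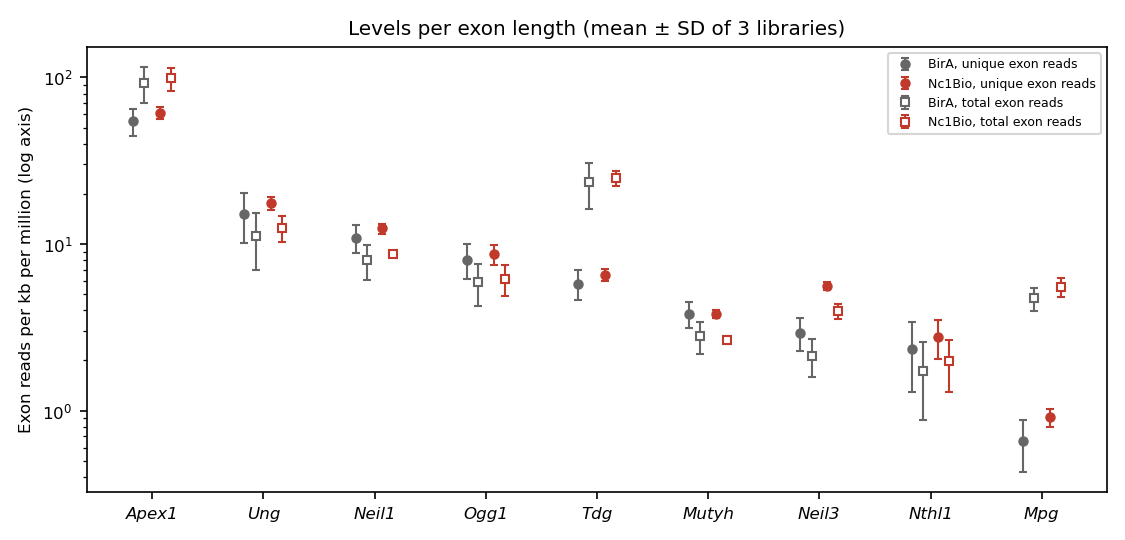
Exon reads scaled to exon length and library sum (RPKM), on a log axis, for the 9 members with reads in both groups, as mean ± SD of 3 libraries, with filled circles for unique and open squares for total exon reads. Neil3 moves from 2.93 to 5.62 RPKM of unique exon reads between BirA and Nc1Bio, and Tdg and Mpg differ most between the count columns.

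The next question was how the partners of the glycosylases and the genes of related pathways behaved. Among 108 genes in 8 lists, 107 were tested and none was called by edgeR. At an unadjusted edgeR p under 0.05, 27 were higher and 3 lower in Nc1Bio, against 4.31% and 7.66% of all genes tested. DESeq2 called 4 higher and 0 lower, against 0.468% and 2.32% of all genes, and 86 of the 107 had a log2 fold change above 0, against 49.6%. The highest log2 fold change was 0.60, for *Fancb*, a Fanconi anaemia gene. None was above that of *Neil3*, but only 1.33% of all genes tested were. The value of *Neil3* also chose that gene, so its place above these lists is no result about them.

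The other glycosylases, *Smug1* for uracil and *Mbd4* for mismatches at CpG, had log2 fold changes of -0.12 and -0.044. Of the 13 genes of short-patch repair, 8 were above 0, with a median of 0.075. This median was 0.0093 without Nc1Bio replicate 2, 0.021 without BirA replicate 1, 0.027 without Nc1Bio replicate 3 and 0.045 without Nc1Bio replicate 1, and without both BirA replicate 1 and Nc1Bio replicate 3 it was -0.024, with 6 of the 13 above 0. The lowest unadjusted edgeR p of these, 0.0193, was that of *Tdp1*, which removes adducts from DNA ends, at 0.27, and *Xrcc1*, the scaffold of the pathway, was at 0.18. Of the 19 genes of long-patch repair, which are also those of the replication fork, 18 were above 0, with a median of 0.23, and 9 were higher and 1 lower at an unadjusted p under 0.05. DESeq2 called 1 of them, *Pold1*, the catalytic subunit of polymerase delta, at 313 CPM in BirA and 399 CPM in Nc1Bio (log2 fold change 0.35, DESeq2 adjusted p = 0.0219). *Pold4*, its smallest subunit, had the opposite sign at -0.94 (edgeR adjusted p = 0.343). It was at 34.2, 16.9 and 15.6 CPM in BirA and 12.8, 12.4 and 9.56 CPM in Nc1Bio, with BirA replicate 1 far above the rest.

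Of the 6 genes that cleanse the nucleotide pool, 4 were above 0, with a median of 0.16. Without BirA replicate 1, 3 of the 6 were above 0, with a median of 0.054. The dNTP hydrolase gene *Samhd1* was lowest at -1.18 (edgeR adjusted p = 0.323). It was at 129, 142 and 59.1 CPM in BirA and 45.8, 30.2 and 69.6 CPM in Nc1Bio, so the groups overlapped. Of the 10 tested of 11 genes of cytosine modification, whose products make or remove the bases *Tdg* acts on, 2 were above 0, with a median of -0.13, which ranged from -0.22 to -0.075 when 1 BirA library was left out. The lowest p was that of the maintenance methyltransferase gene *Dnmt1*, at 0.23 (edgeR adjusted p = 0.457). Of 18 genes of crosslink repair, a process that *Neil3* serves too, 15 were above 0, with a median of 0.16. Without BirA replicate 1 this median was 0.075, without Nc1Bio replicate 3 it was 0.10 and without BirA replicate 3 it was 0.27, and without both BirA replicate 1 and Nc1Bio replicate 3 it was 0.040, with 9 of the 18 above 0. The Fanconi anaemia genes *Fancd2* and *Fanca* were at 0.51 and 0.54, each with an unadjusted edgeR p under 0.05 and adjusted p-values of 0.330 and 0.404.

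**Figure D4:**
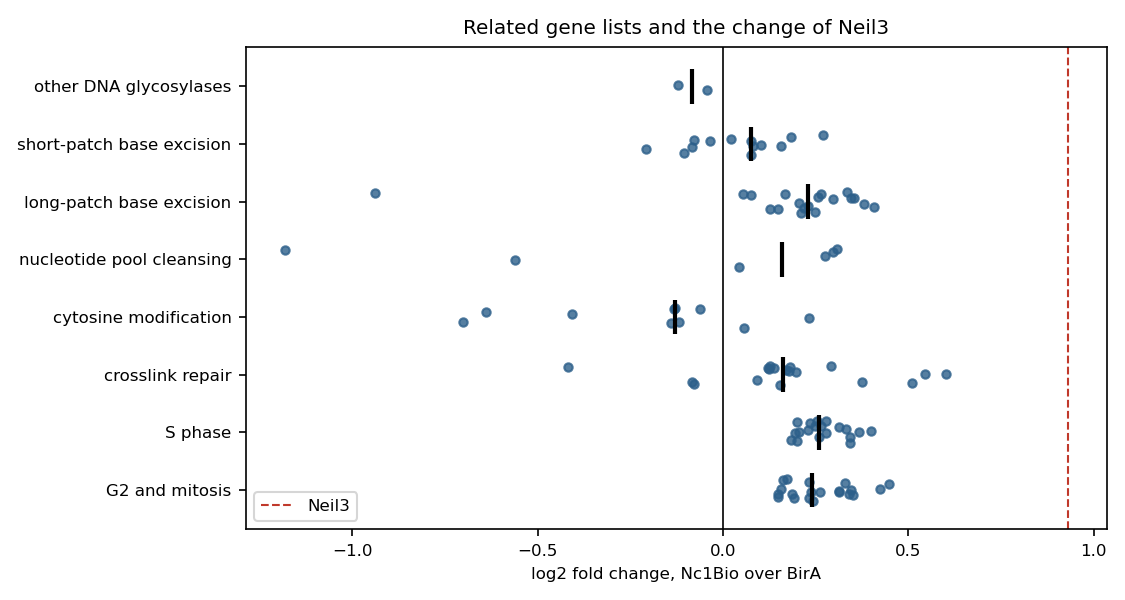
Log2 fold change of Nc1Bio over BirA for the tested genes of 8 related lists, 1 point per gene, with the list median as a black bar and the value of Neil3 as a dashed line. All points lie at 0.60 or below, left of Neil3, whose value chose it. The S phase and the G2 and mitosis genes all lie above 0.

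Because *Neil3* is known as a gene of cycling cells, its level was set against genes of S phase and of G2 and mitosis. The log2 fold changes of all 19 S phase genes were above 0, with their median at 0.26 and a range of 0.18 for *Gins2* to 0.40 for *E2f1*. All 20 genes of G2 and mitosis were above 0 as well, with a median of 0.24 and a range of 0.15 for *Tpx2* to 0.45 for *Cenpe*. In each list 7 genes were higher at an unadjusted edgeR p under 0.05. DESeq2 called *Mcm5*, a subunit of the replicative helicase, at 0.33 (adjusted p = 0.0432), and the mitotic ubiquitination genes *Cdc20* at 0.42 (adjusted p = 0.0117) and *Ube2c* at 0.35 (adjusted p = 0.0357). Without BirA replicate 1 the medians were 0.16 for S phase and 0.14 for G2 and mitosis, and all 39 genes were above 0. Without Nc1Bio replicate 1, 19 of the 20 G2 and mitosis genes were above 0. Without both BirA replicate 1 and Nc1Bio replicate 3, 16 of the 19 and 18 of the 20 were above 0, with medians of 0.12 and 0.15.

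The summed level of the G2 and mitosis genes was 3445, 3956 and 4211 CPM in BirA and 4551, 4548 and 4706 CPM in Nc1Bio. *Neil3* had 4.04, 4.90 and 4.06 reads per 1000 reads of that list in BirA, and 7.19, 6.69 and 7.00 in Nc1Bio. The 2 groups stayed apart on this scale, with a difference of the mean log2 ratios of 0.69, or 1.61-fold, which is smaller than the 0.93 of *Neil3* alone. Against the S phase list the difference was 0.68. Without BirA replicate 1 the difference against the G2 and mitosis list was 0.64. As the numerator chose the gene, these differences have no test.

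**Figure D5:**
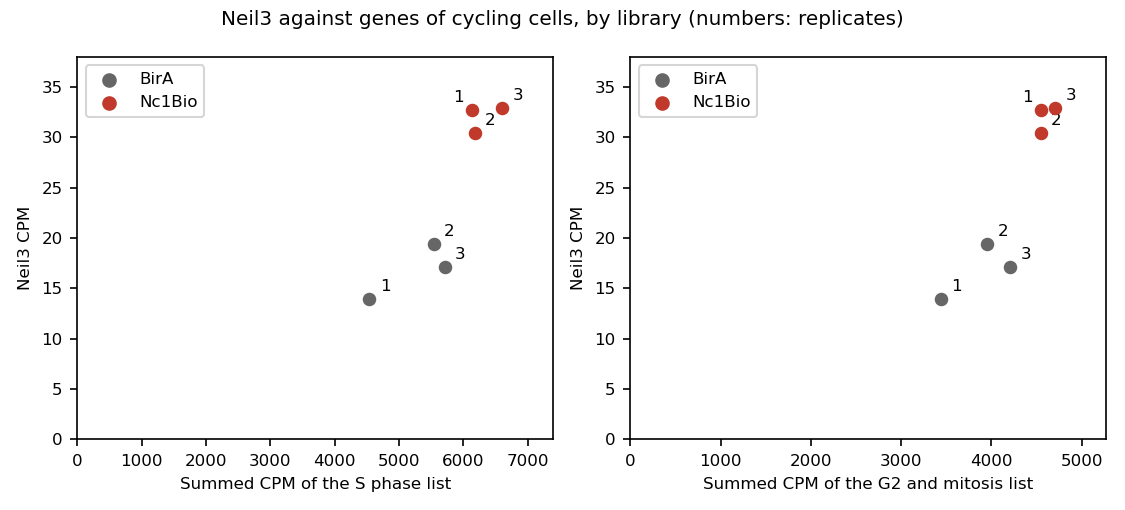
CPM of Neil3 against the summed CPM of the S phase list (left) and of the G2 and mitosis list (right), 1 point per library with its replicate number. The Nc1Bio libraries lie to the right of and above the BirA libraries, with 30.4 to 32.9 CPM of Neil3 at 4548 to 4706 CPM of the G2 and mitosis list.

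Levels of markers of other cells and stages also differed between the groups, though edgeR called none of the marker genes and none was at 0 in all libraries. Of the 16 DN markers 13 were above 0, and DESeq2 called *Ptcra*, the pre-T cell receptor alpha chain gene, at 1.20 (adjusted p = 0.00905) and *Notch3* at 0.49 (adjusted p = 0.0285). The summed level of the mature thymocyte markers was 841 to 980 CPM in BirA and 521 to 598 CPM in Nc1Bio, and all 5 genes were below 0. That of the B cell markers was 1653 to 2058 CPM against 293 to 1570 CPM, with all 8 below 0, and that of the NK and innate lymphoid markers 645 to 667 CPM against 298 to 475 CPM, with all 5 tested of 7 below 0. Of the 6 DP markers 2 were above 0, and of the 7 tested macrophage and dendritic cell markers none. The DP sum was 276 to 318 CPM in BirA and 289 to 324 CPM in Nc1Bio, and the groups overlapped. They also overlapped in the macrophage and dendritic cell sum (167 to 1151 against 303 to 695 CPM) and the DN sum (6080 to 6897 against 6693 to 7640 CPM). The erythroid, granulocyte and thymic epithelial sums overlapped as well. These were at 17644 to 97499 CPM, 357 to 8748 CPM and 22.2 to 44.9 CPM over all libraries. DESeq2 called 3 mature thymocyte, 4 B cell, 2 NK and innate lymphoid and 1 DP marker lower. Of all genes, DESeq2 called 2.32% lower and 0.468% higher, and by edgeR 49.6% were above 0 and 50.4% below. The part of these markers in the difference of *Neil3* was not tested. In bulk RNA, fewer cells of a type and less RNA per cell cannot be told apart.

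Among 9382 genes with a mean of at least 5 CPM, those whose log2 CPM followed *Neil3* most closely over the 6 libraries were *Tmem128* (Pearson r = 0.995), *Atp5o_2* (0.995), *Srebf2* (0.990), *Mmab* (0.989) and *E2f2* (0.986). The 6 points share the group difference, depth and scaling, so these values only describe likeness. *E2f2*, an E2F transcription factor gene, was at 184, 210 and 193 CPM in BirA and 262, 253 and 281 CPM in Nc1Bio, 0.44 higher on the log2 scale. The search for likeness to *Neil3* favours genes with such a group difference, so it is given without a test. *Srebf2*, a regulator of sterol synthesis genes, was at 297 CPM in BirA and 347 CPM in Nc1Bio, a much smaller difference than that of *Neil3*. Of the other members, *Apex1* (r = 0.741) and *Neil1* (0.733) followed *Neil3* most and *Nthl1* (0.390) least, and at least 11.5% of the genes searched had a larger r than any of them.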

How the data were processed

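DN thymocyte RNA was made into poly(A) libraries and sequenced as 59-base single reads. The study's methods name cutadapt, STAR, featureCounts and DESeq2, while the layout of the deposited tables is not that of featureCounts. The deposited counts are whole numbers of unique and total gene, exon, intron and junction reads per gene, which the authors made on GRCm38 per the submitters' processing notes; no strand setting is stated. RPKM and TPM columns were not used.

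Unique gene reads, 64.1% to 76.0% of total gene reads, were tested in edgeR 4.0.16 (R 4.3.3) by filterByExpr, TMM scaling and the quasi-likelihood test with genotype as the only term, adjusted by Benjamini-Hochberg over 12224 genes and called at 0.05. CPM use TMM-scaled library sizes, and the SE is the size of the log2 fold change divided by the square root of F. RPKM here were computed from deposited exon counts and exon lengths. No 2 libraries agreed within sampling noise (chi-square of at least 26 times its degrees of freedom). Counts are reads, not molecules. The steps were tested on simulated data.

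Named genes are all members, *Nfatc1*, up to 3 genes of lowest p per list, the 5 genes (with a mean of at least 5 CPM, predicted models left out) most like *Neil3* and, chosen after their values were seen, the extremes of a list and *Thy1*, *Il2ra*, *Cd4* and *Cd8a*. The members and the 17 gene lists were chosen with earlier results of these data known. Alternatives were DESeq2 1.42.0, limma 3.58.1 (voom), RLE scaling, no low-count filter or at least 1 CPM in 3 libraries, the other count columns, a replicate block and leaving out each library, and, chosen after seeing the data, omitting both BirA replicate 1 and Nc1Bio replicate 3, omitting haemoglobin genes, and DESeq2 on total gene reads.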

Additional observations from a re-analysis of the deposited data

How the results depend on the processing

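The log2 fold change of *Neil3* lay between 0.79 and 1.05 over its 18 alternatives, lowest without both BirA replicate 1 and Nc1Bio replicate 3, and its excess over the G2 and mitosis list between 0.64 and 0.78. Of 144 values of the 8 other tested members under alternatives, none was called and 6 changed sign. Without both these libraries, *Neil1* was at -0.0042, *Tdg* at -0.020 and *Mutyh* at -0.13, and the median of the 8 was 0.072. Leaving out 1 library, *Ogg1* ranged from -0.0054 (without BirA replicate 1) to 0.26 and *Mutyh* from -0.065 (without BirA replicate 1) to 0.16, also below 0 without Nc1Bio replicate 3. *Mpg* was at 0.86 without BirA replicate 1. The cause of these moves was not tested. The smallest adjusted p of any was 0.168, for *Ung* without BirA replicate 3.

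Over all genes, edgeR called 1 gene higher and 0 lower, with 527 higher and 936 lower at an unadjusted p under 0.05. The counts were 11 and 145 with no filter, 55 and 273 with DESeq2, and 59 and 289 with DESeq2 on total gene reads. They were 0 to 1 higher and 0 to 1 lower when 1 library was left out, and 2 lower without both BirA replicate 1 and Nc1Bio replicate 3. Of the 107 tested pathway genes, edgeR called 0 and DESeq2 called 4, on unique and on total gene reads. The replicate block gave 1 gene higher, 1 lower and a log2 fold change of 0.94 for *Neil3*. Same-numbered libraries deviated together with correlations of 0.335, 0.118 and -0.0991, and 3 of the 6 libraries correlated best with their own number, so the numbers were not taken as pairs. Depth limits *Neil2*, *Mpg* and *Nthl1* most.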
